A study of Mus musculus with 93 samples.

Results

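The 10 genes described here lie on mouse chromosome 5 around Htt, the gene that carries the knock-in allele of this liver RNA-seq study. They are Abhd1, Preb, Galnt11, Atraid, Pisd, Prr14l, Rbks, Slc35f6, Hs3st1 and Spon2. All lie within about 10 Mb of Htt, and they were selected on the log2 difference between knock-in and wild-type livers in these same libraries, except Preb, which was taken because its exons overlap those of Abhd1. The values that chose them are therefore given below as a description, with no test. All 10 are among the 39179 genes of the deposited tables, and all 10 passed the filter on low counts that left 16126 genes.

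The livers came from C57BL/6 mice, per the labels, aged 10 or 6 months, of both sexes. The knock-in mice were heterozygous for an Htt allele named Q20, Q50, Q92 or Q140 after its CAG repeat length, and the wild types, littermates per the series text, were housed either with Q20 mice or with Q50 mice. There were 15 Q20, 16 Q50, 15 Q92 and 15 Q140 libraries, 16 libraries of wild types housed with Q20 and 16 of wild types housed with Q50. No wild types were housed with Q92 or Q140 mice, so for these alleles the knock-in and its housing cannot be told apart, and their values are set against the mean of both wild-type groups. The labels number the replicates in each group of 3 or 4 libraries without saying that each is a separate animal, and a p-value here covers only the spread among libraries.

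Htt encodes huntingtin, and an expanded CAG repeat in its first exon causes Huntington's disease. A knock-in allele replaces part of the mouse gene at its own place on the chromosome, and genes on the same chromosome are inherited together with it more often the nearer they lie. Of the genes described here, Preb acts in the export of proteins from the endoplasmic reticulum. Galnt11 attaches sugars to proteins, and Hs3st1 modifies sugar chains on proteins. Pisd and Rbks are metabolic enzymes, Atraid and Slc35f6 encode membrane proteins, and Spon2 encodes a secreted matrix protein.

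Positions are those of the GRCm38 annotation (GENCODE), joined on the Ensembl identifier, and distances run between the nearest ends of a gene and Htt, with a minus sign on the lower-coordinate side. Htt (ENSMUSG00000029104) lies at chr5:34761740-34912534 on the plus strand. Of the 10 genes, 9 lie on its lower-coordinate side. Galnt11 (ENSMUSG00000038072, chr5:25221904-25265918) is the farthest, at -9.5 Mb. Slc35f6 (ENSMUSG00000029175, chr5:30647933-30659729), Abhd1 (ENSMUSG00000006638, chr5:30950066-30955091), Preb (ENSMUSG00000045302, chr5:30950853-30960361) and Atraid (ENSMUSG00000013622, chr5:31048312-31054623) lie within 1 stretch. Rbks (ENSMUSG00000029136, chr5:31624439-31697627), Pisd (ENSMUSG00000023452, chr5:32736301-32785646), Prr14l (ENSMUSG00000054280, chr5:32789820-32854256) and Spon2 (ENSMUSG00000037379, chr5:33198184-33218455) follow towards Htt. Hs3st1 (ENSMUSG00000051022, chr5:39613935-39755475) is the only one on the other side.

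Some of these genes share exons with a neighbour. Where the neighbour lies on the opposite strand, reads from the shared parts cannot be told apart, since no strand setting is given in the sources used here. Abhd1 shares 1575 of its 1758 exonic bases (89.6%) with Preb, which in turn shares 21.8% of its own. The annotation lists 7 transcripts of Abhd1, 0 of them protein coding. Atraid shares 19.0% of its exonic bases with Slc5a6 and Galnt11 shares 4.47% with E130116L18Rik, both on the opposite strand. On the same strand, Pisd shares 20.9% with Gm20671 and Gm43695, and Prr14l shares 5.53% with Gm20671, so their counts could be split between the genes whatever the strand setting.

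Promoter windows of RefSeq (GRCm38.p6, from 250 bases before to 50 after the start) were at hand for 8 of the 10 genes, not for Abhd1 or Spon2. The windows of Galnt11, Atraid, Pisd and Prr14l are shown, 5′ to 3′ in the direction of transcription, and those of the other genes are not. Where RefSeq gives several starts, the one farthest upstream is shown. Capitals mark GGGCGG, the core of GC boxes, and CCAAT, each read on either strand.
Galnt11, chr5:25222622-25222921, plus strand: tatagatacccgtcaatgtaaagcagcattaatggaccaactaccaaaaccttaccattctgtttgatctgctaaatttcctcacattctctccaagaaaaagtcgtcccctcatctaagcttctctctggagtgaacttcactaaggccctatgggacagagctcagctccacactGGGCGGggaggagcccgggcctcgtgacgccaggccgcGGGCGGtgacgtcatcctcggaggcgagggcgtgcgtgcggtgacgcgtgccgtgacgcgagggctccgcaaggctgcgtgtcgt
Atraid, chr5:31048390-31048689, plus strand: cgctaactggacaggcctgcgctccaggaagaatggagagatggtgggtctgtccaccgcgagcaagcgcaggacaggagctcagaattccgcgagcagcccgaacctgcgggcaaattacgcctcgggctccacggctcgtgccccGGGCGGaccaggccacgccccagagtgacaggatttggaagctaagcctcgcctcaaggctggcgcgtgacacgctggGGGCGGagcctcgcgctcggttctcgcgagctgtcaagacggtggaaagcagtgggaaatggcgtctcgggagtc
Pisd, chr5:32785577-32785876, minus strand: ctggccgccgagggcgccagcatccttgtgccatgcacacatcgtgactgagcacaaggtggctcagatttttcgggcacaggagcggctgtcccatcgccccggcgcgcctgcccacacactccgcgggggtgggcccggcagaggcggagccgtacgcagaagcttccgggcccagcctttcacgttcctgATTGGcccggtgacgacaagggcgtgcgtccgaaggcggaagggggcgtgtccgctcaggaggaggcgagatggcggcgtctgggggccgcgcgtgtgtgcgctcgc
Prr14l, chr5:32854181-32854480, minus strand: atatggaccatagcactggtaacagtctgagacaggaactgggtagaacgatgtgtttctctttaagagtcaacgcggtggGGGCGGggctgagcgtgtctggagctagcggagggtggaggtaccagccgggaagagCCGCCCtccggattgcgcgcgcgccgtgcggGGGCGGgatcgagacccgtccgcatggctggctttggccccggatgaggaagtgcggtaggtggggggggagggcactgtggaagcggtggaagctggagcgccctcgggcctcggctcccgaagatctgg

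The motifs searched on both strands were the TATA box as TATAAA, the CCAAT box and the GC box core GGGCGG, and no matches overlapped in these windows. GGGCGG occurred 2 times in the Galnt11 window, 2 times in the Atraid window and 3 times in the Prr14l window, and CCAAT occurred 1 time in the Pisd window. Of 32851 mouse windows of the same length, 35.7% held GGGCGG, 37.4% held CCAAT and 13.6% held TATAAA. The 4 windows had GC contents of 57.0% (Galnt11), 65.3% (Atraid), 70.0% (Pisd) and 65.3% (Prr14l), against a median of 52.7% over all windows. A match is a run of letters, not a measured site.

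Levels below are CPM, rounded expected counts scaled by library size and TMM factor. Where genes are compared with each other, FPKM is used, which is scaled per length. By mean FPKM over the 93 libraries, Preb stood highest at 56.6, above 93.2% of tested genes, followed by Atraid at 50.4. Pisd had 13 FPKM, Abhd1 11.1, Rbks 7.45, Slc35f6 6.0, Galnt11 5.52, Prr14l 2.5 and Spon2 2.12. Hs3st1 had the lowest mean level, 0.112 FPKM, with only 1 to 15 expected counts per library, so its values carry a large counting error. Total counts per library ran from 28752184 to 46776898. Summed hepatocyte markers ran from 39400 to 74300 FPKM, and summed brain markers from 2.2 to 41.6 FPKM, highest in Q140 female replicate 1 at 10 months. In whole-liver RNA, fewer cells of a type and less RNA per cell cannot be told apart.

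Some libraries stood apart in these genes, and they are named before the results. The library labelled Q50 female replicate 1 at 6 months had 2.39 CPM of Abhd1, inside the wild-type range, while the other Q50 libraries had 18.3 CPM or more. In Abhd1 this library goes against its label, which is therefore in doubt. The Q140 female replicate 2 at 10 months had 64.5 CPM of Atraid, the highest Q140 value, and 10.2 CPM of Galnt11, the lowest Q140 value. Among the wild types housed with Q20, male replicate 1 at 10 months had the lowest total count of all libraries and only 11.3 CPM of Pisd. Some of the differences that these libraries moved are given both with and without them, and the rest only with all libraries. The library labelled Q50 female replicate 1 also had the lowest Slc35f6 value of its group, and the wild-type male replicate 1 the lowest Atraid and Prr14l values of its genotype and age.

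Abhd1, a member of the alpha/beta hydrolase family by name, was higher in every knock-in allele, at 10.9 to 12.3 times the wild-type level in the fit. It averaged 23.1 ± 1.8 CPM in Q20 livers (SD, n = 15), 19.8 ± 4.97 in Q50 (n = 16), 22.0 ± 3.2 in Q92 (n = 15) and 20.7 ± 2.02 in Q140 (n = 15), against 1.89 ± 0.651 in wild types housed with Q20 and 1.81 ± 0.38 in wild types housed with Q50 (n = 16 each). The lowest, median and highest values were 19.6, 23.3 and 25.4 CPM in Q20, 2.39, 21.1 and 24 in Q50, 17.3, 21.0 and 27.4 in Q92, and 17.8, 20.8 and 24.6 in Q140, against 0.926, 1.76 and 3.57 CPM over all 32 wild types. The knock-in and wild-type ranges overlapped through 1 library only, the one labelled Q50 female replicate 1 at 6 months. Without it, Q50 livers averaged 21.0 ± 1.82 CPM (n = 15).

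Abhd1 differed from the wild types by 3.62 ± 0.14 on the log2 scale (SE) for Q20, 3.44 ± 0.14 in Q50, 3.57 ± 0.11 in Q92 livers and 3.48 ± 0.11 in Q140, and 3.53 in Q50 without the library named above. By age, these differences were 3.44, 3.42, 3.41 and 3.34 at 10 months and 3.80, 3.47, 3.74 and 3.63 at 6 months, in the order Q20, Q50, Q92 and Q140. Without the same library, the Q50 difference at 6 months was 3.64. The span at 10 months was smaller than the SE of each value (0.16 to 0.20). Without the wild-type male replicate 1 at 10 months, the values of that age were 3.60 in Q20, 3.49 in Q92 livers and 3.42 in Q140, and the Q50 value does not use it, so no order by CAG repeat length held at either age once these libraries were left out. Every knock-in library but 1 lay above all wild types of its sex, that is 15 of 15 Q20, 15 of 16 Q50, 15 of 15 Q92 and 15 of 15 Q140 libraries. Of all tested genes, 0.0062% had every library above the wild types of its sex in Q20, 0.0% in Q50, 0.0062% in Q92 livers and 0.0062% in Q140. The rule used this contrast, so the count describes how the gene was picked.

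Preb, which encodes the exchange factor that loads Sar1 with GTP at endoplasmic reticulum exit sites, overlaps Abhd1 and did not share its pattern. Its lowest, median and highest values were 69.3, 81.7 and 95.2 CPM in Q20, 64.4, 83.9 and 129.0 in Q50, 60.8, 74.7 and 110.0 in Q92 livers and 55.6, 75.5 and 104.0 in Q140, against 64.2, 75.8 and 110.0 in wild types housed with Q20 and 67.0, 83.0 and 106.0 in wild types housed with Q50. All these ranges overlap. The log2 differences from the wild types were 0.02, 0.06, -0.07 and -0.09 in the same order of alleles, each with an SE of 0.05. Per length, Abhd1 stood at 17 ± 1.6 FPKM in Q20, 15 ± 3.68 in Q50, 16.7 ± 2.23 in Q92 livers and 16.0 ± 1.51 in Q140, against 1.42 ± 0.448 over the wild types, while Preb averaged 56.3 ± 8.3 FPKM over the knock-ins and 57.3 ± 7.73 over the wild types.

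**Figure D1:**
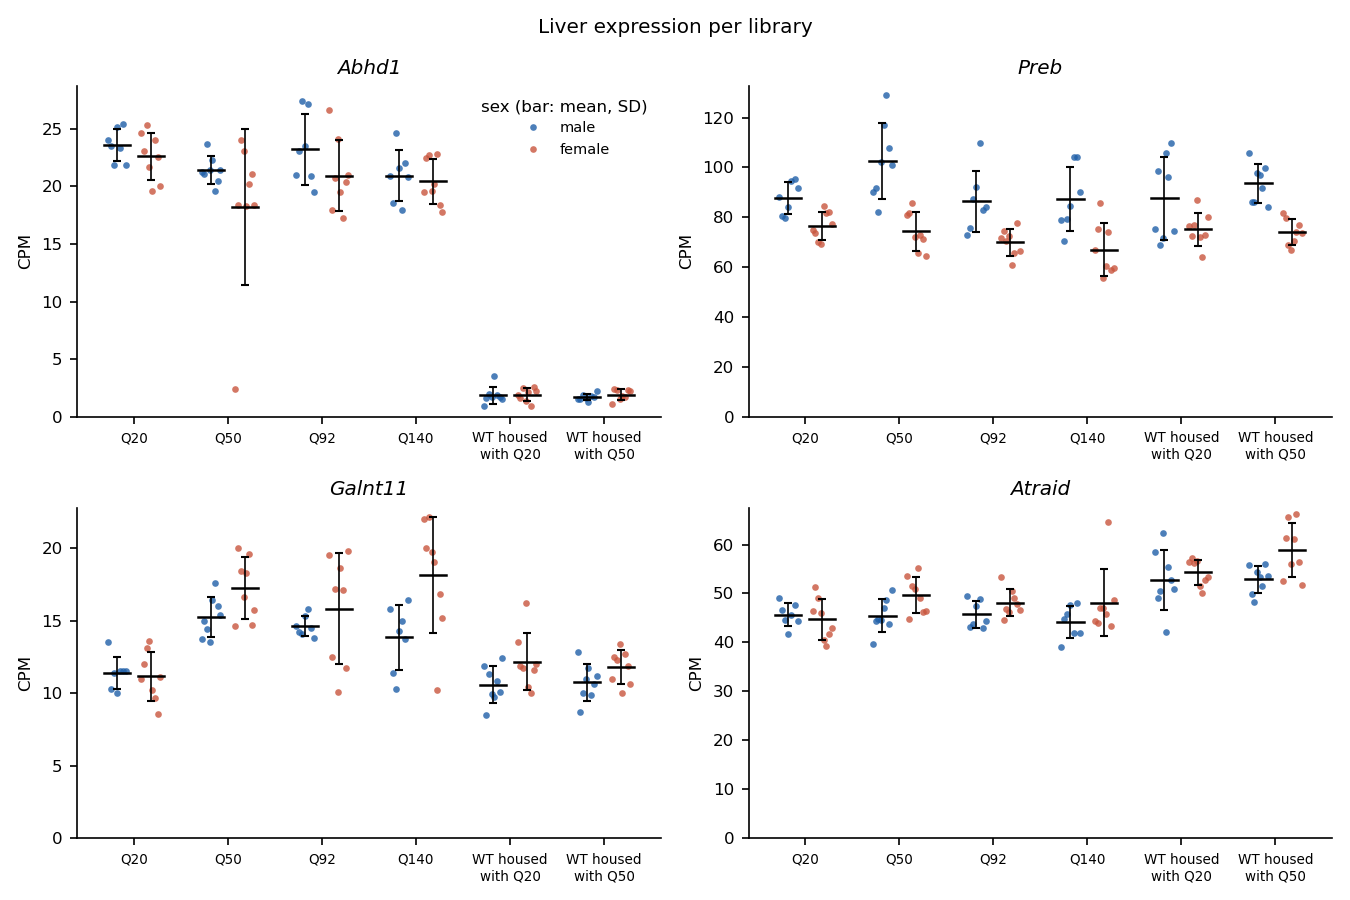
CPM (vertical axis) of Abhd1, Preb, Galnt11 and Atraid in each of the 93 libraries, by genotype, with males left and females right within a genotype and bars for the mean and SD. All knock-in libraries but 1 have 17.3 to 27.4 CPM of Abhd1, above the highest wild type at 3.57 CPM. The remaining knock-in library, at 2.39 CPM, lies among the wild types.

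Galnt11, an enzyme that attaches the first sugar of mucin-type O-glycans, separated the alleles: Q50, Q92 and Q140 lay above the wild types and Q20 did not. It averaged 11.3 CPM in Q20, 16.2 in Q50, 15.3 in Q92 livers and 16.1 in Q140, against 11.4 in wild types housed with Q20 and 11.3 in wild types housed with Q50. The lowest, median and highest values were 8.58, 11.4 and 13.6 CPM in Q20, 13.5, 15.8 and 20.0 in Q50, 10.1, 14.6 and 19.8 in Q92 livers and 10.2, 15.8 and 22.1 in Q140, against 8.48, 11.5 and 16.2 in wild types housed with Q20 and 8.73, 11.1 and 13.4 in wild types housed with Q50. Every Q50 library lay above every wild type housed with Q50, by a narrow margin, 13.5 against 13.4 CPM, whereas the wild types housed with Q20 reached into the Q50 range and the Q92 and Q140 ranges reached down into those of both wild-type groups. Of all tested genes, 0.0062% had every Q50 library above every wild type housed with Q50, and since the rule used this contrast nothing is read from it.

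For Galnt11 the log2 differences were -0.01 ± 0.07 in Q20 mice, 0.53 ± 0.07 in Q50, 0.43 ± 0.06 in Q92 livers and 0.49 ± 0.06 in Q140. Set against Q20 in place of wild types, it was 0.53 ± 0.07 in Q50, 0.43 ± 0.07 in Q92 livers and 0.49 ± 0.07 in Q140. The pattern was present at both ages, with -0.03, 0.59, 0.52 and 0.47 at 10 months and 0.01, 0.46, 0.34 and 0.51 at 6 months. Libraries were also set against the 16 wild types of their own sex, both housings together. Above that range lay 1 of 15 Q20, 13 of 16 Q50, 12 of 15 Q92 and 11 of 15 Q140 libraries, and 2 Q20 libraries lay below it. The library labelled Q50 female replicate 1 at 6 months, low in Abhd1, had 14.6 CPM of Galnt11, inside both the Q50 range and the female wild-type range. Taking it out left the Q50 difference at 0.54. Without the Q140 female replicate 2 at 10 months, the Q140 difference was 0.53 over both ages and 0.54 at 10 months.

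Within the Q140 and Q92 groups, Galnt11 spread widely. At 6 months, male Q140 livers had 15.8, 11.4, 10.3 and 14.3 CPM and female Q140 livers 22, 20.0, 22.1 and 19.7 CPM, and these do not overlap. Of all tested genes, 11.5% had every male Q140 library of that age below every female one. Male Q92 livers of that age had 14.6, 14.2, 14.1 and 15.3 CPM, while female Q92 livers had 19.5, 12.5, 17.2 and 10.1 CPM, on both sides of the males.

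**Figure D2:**
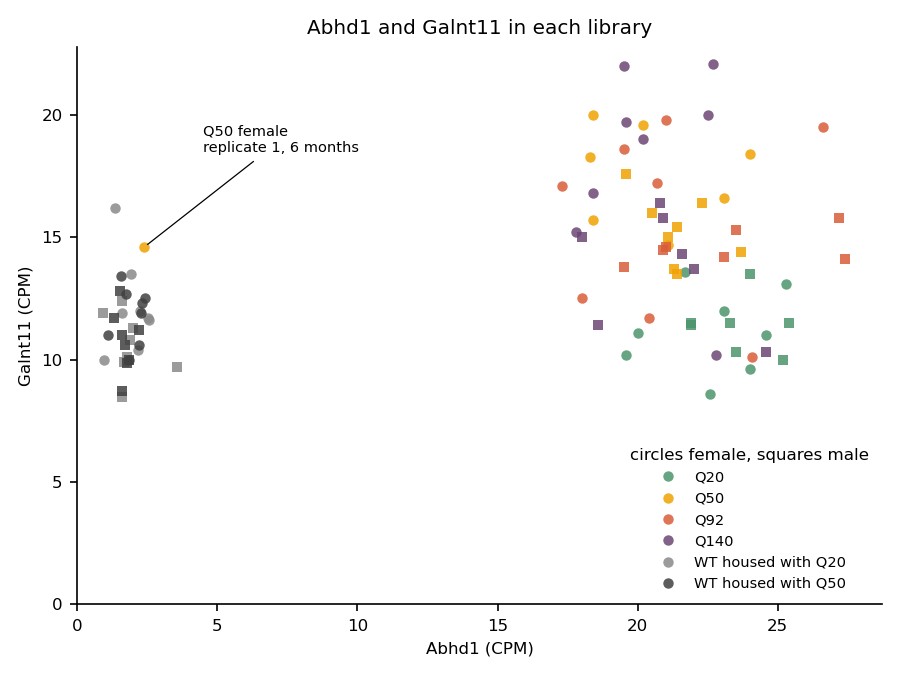
Abhd1 against Galnt11, both in CPM, with 1 point per library coloured by genotype (squares males, circles females). Q20 libraries share the high Abhd1 level of the other alleles (19.6 to 25.4 CPM) at wild-type levels of Galnt11 (8.58 to 13.6 CPM), and the annotated Q50 female replicate 1 at 6 months lies apart at 2.39 and 14.6 CPM.

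Hs3st1, which adds the sulfate group that gives heparan sulfate its antithrombin binding, was at the limit of detection. It averaged 0.131 CPM in Q20, 0.12 in Q50, 0.193 in Q92 livers and 0.203 in Q140, against 0.215 in wild types housed with Q20 and 0.183 in wild types housed with Q50. The log2 differences were -0.73 ± 0.24 in Q20, -0.53 ± 0.25 in Q50, close to 0 in Q92 livers and 0.10 ± 0.19 in Q140. By age they were -0.48 ± 0.35, -0.45 ± 0.37, 0.35 ± 0.29 and 0.26 ± 0.29 at 10 months and -0.98 ± 0.32, -0.62 ± 0.32, -0.36 ± 0.27 and -0.05 ± 0.27 at 6 months in Q20, Q50, Q92 and Q140, so the Q92 value near 0 averages opposite signs at the 2 ages. The wild-type groups themselves differed by 0.35 ± 0.23, those housed with Q20 higher, the widest gap between the wild types among the 10 genes. On log2(FPKM + 1) this gap was 0.03. With 1 library left out at a time, the difference ran from -0.68 to -0.37 in Q50 and from -0.99 to -0.63 in Q20. The -0.68 was without Q50 female replicate 1 at 6 months, and at that age the Q50 difference was then -0.91 in place of -0.62. On log2(FPKM + 1) it was only -0.04 in Q50 and -0.08 in Q20.

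Atraid, a lysosomal membrane glycoprotein named for its induction by retinoic acid, was lower in all 4 alleles by a like amount. The lowest, median and highest values were 39.3, 45.7 and 51.4 CPM in Q20, 39.6, 46.7 and 55.2 in Q50, 43.0, 46.8 and 53.4 in Q92 livers and 39, 45.8 and 64.5 in Q140, against 42.1, 53.1 and 62.4 in wild types housed with Q20 and 48.2, 55.1 and 66.2 in wild types housed with Q50. The ranges overlap, but each knock-in median lies below both wild-type medians. The log2 differences were -0.24 in Q20, -0.23 in Q50, -0.22 in Q92 livers and -0.25 in Q140, each with an SE of 0.04, and -0.28 in Q140 without the female replicate 2 at 10 months. Without the wild-type male replicate 1 at 10 months, the Q20 difference was -0.26. Below all wild types of their sex lay 8 of 15 Q20, 5 of 16 Q50, 6 of 15 Q92 and 10 of 15 Q140 libraries. Of all tested genes, 0.0% had every library below the wild types of its sex in any allele, and Atraid did not either. No share over all genes was counted for partial counts like these, nor for those of Galnt11, Slc35f6, Pisd and Rbks. These partial counts are a description only.

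Slc5a6, a sodium-dependent vitamin transporter whose exons overlap those of Atraid on the opposite strand, had log2 differences of 0.32 ± 0.11 in Q20, 0.20 ± 0.11 in Q50, 0.36 ± 0.09 in Q92 livers and 0.43 ± 0.09 in Q140. It is not among the 10 genes. Its libraries spread widely, with 18 ± 8.45 CPM in Q140 against 12.5 ± 6.65 in wild types housed with Q20 and 13.3 ± 6.43 in wild types housed with Q50. Slc35f6, of a family of nucleotide-sugar transporters, had log2 differences of 0.08, 0.15, 0.12 and 0.10 in Q20, Q50, Q92 and Q140, each with an SE of 0.04, and 2, 2, 2 and 1 libraries of these alleles lay above all wild types of their sex. At 10 months its differences were 0.16, 0.16, 0.17 and 0.16 in the same order, each with an SE of 0.06. At 6 months they were 0.00 in Q20, 0.13 ± 0.06 in Q50, 0.07 ± 0.05 in Q92 livers and 0.03 ± 0.05 in Q140. Without Q50 female replicate 1 at 6 months, the Q50 difference of Slc35f6 was 0.16 over both ages. Without the wild-type male replicate 1 at 10 months, its Q20 difference was 0.06 over both ages and 0.11 at 10 months.

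Pisd, the mitochondrial enzyme that makes phosphatidylethanolamine from phosphatidylserine, was higher in the knock-ins. The lowest, median and highest values were 25.4, 29.7 and 34.4 CPM in Q20, 25.6, 30.3 and 34.4 in Q50, 23.9, 28.7 and 32.3 in Q92 livers and 25.2, 26.8 and 31.7 in Q140, against 11.3, 26 and 26.9 in wild types housed with Q20 and 19.8, 26 and 30.1 in wild types housed with Q50. The log2 differences were 0.28 ± 0.06 in Q20, 0.21 ± 0.05 in Q50, 0.17 ± 0.05 in Q92 livers and 0.15 ± 0.05 in Q140. These values use the wild-type male replicate 1 at 10 months that held 11.3 CPM, except in Q50. Without it, they were 0.22 in Q20, 0.14 in Q92 livers and 0.12 in Q140. At 10 months, the Q20 difference without it was 0.17 in place of 0.28. Set against Q20 livers, Q50 livers differed by 0.02 ± 0.06, Q92 livers by -0.06 ± 0.06 and Q140 livers by -0.09 ± 0.06. Above all wild types of their sex lay 10 of 15 Q20, 11 of 16 Q50, 5 of 15 Q92 and 4 of 15 Q140 libraries.

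Prr14l, the neighbour of Pisd, was higher in the knock-ins, with its widest difference in Q20. It had a lowest, median and highest value of 23.1, 28.2 and 32.2 CPM in Q20, 20.1, 24.4 and 28.4 in Q50, 20.7, 24.6 and 28.5 in Q92 livers and 17.5, 25.3 and 32.9 in Q140, against 16.9, 23.8 and 27.2 in wild types housed with Q20 and 14.3, 22.4 and 26.7 in wild types housed with Q50. The ranges of all 4 alleles overlap those of the wild types. The log2 differences were 0.27 ± 0.06 in Q20, 0.16 ± 0.06 in Q50, 0.12 ± 0.05 in Q92 livers and 0.18 ± 0.05 in Q140, and 0.25 in Q20 without the wild-type male replicate 1 at 10 months. Relative to Q20, they were -0.17 in Q50, -0.18 in Q92 livers and -0.12 in Q140, each with an SE of 0.06.

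Rbks, which phosphorylates ribose, was lower in all 4 alleles. It averaged 7.38 CPM in Q20, 7.14 in Q50, 7.36 in Q92 livers and 7.26 in Q140, against 8.67 in wild types housed with Q20 and 8.26 in wild types housed with Q50. The log2 differences were -0.23 ± 0.07, -0.21 ± 0.07, -0.19 ± 0.06 and -0.21 ± 0.06 in that order. Only 1 Q50 and 1 Q140 library lay below all wild types of their sex.

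**Figure D3:**
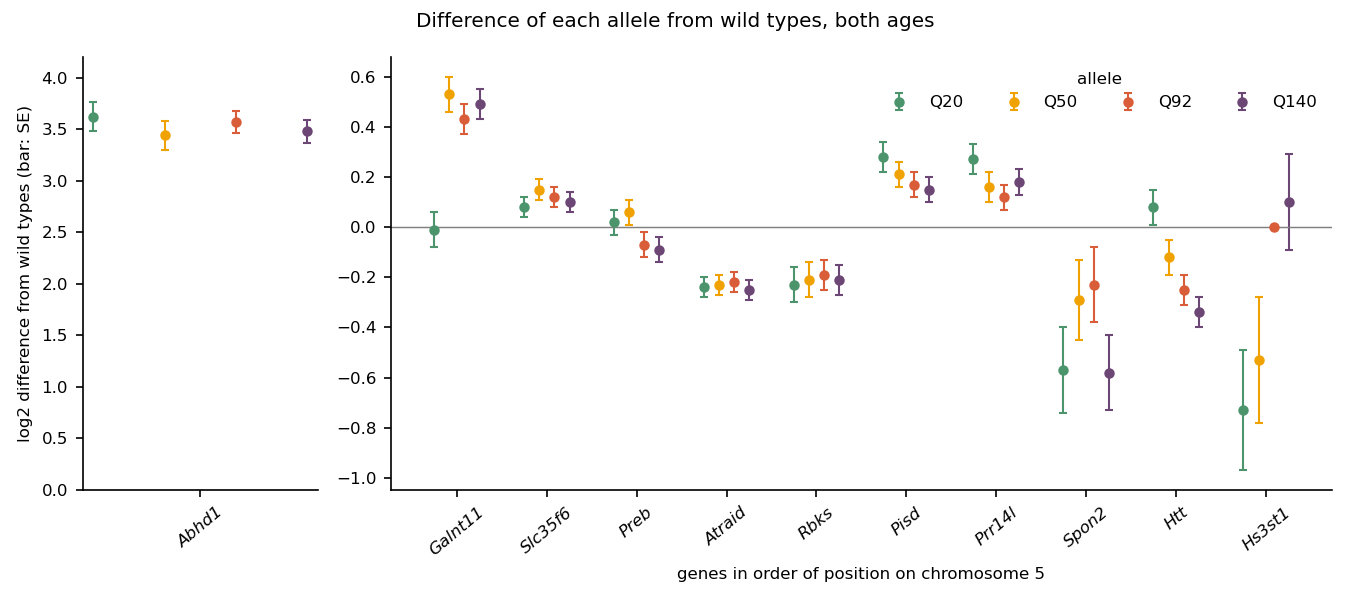
Log2 difference from the wild types (vertical axis, bars the SE) for each gene and allele over both ages, genes in order of position, with Abhd1 on an axis of its own and no bar for Hs3st1 in Q92. Galnt11 is near 0 in Q20 (-0.01) and at 0.43 to 0.53 in the other alleles, while Atraid lies at -0.22 to -0.25 in all 4.

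Spon2, spondin 2, is a secreted matrix protein that acts in innate immunity. With both ages and both sexes together, Spon2 was lower in all 4 alleles, and it was higher in males. At 6 months the Q50 and Q92 differences were smaller in size than their SE. In males the lowest, median and highest values were 3.05, 4.09 and 7.09 CPM in Q20, 3.98, 5.38 and 8.18 in Q50, 3.49, 5.45 and 7.44 in Q92 livers and 3.9, 5.65 and 7.92 in Q140, against 4.62, 7.67 and 10.1 in wild types housed with Q20 and 4.76, 10.0 and 14.6 in wild types housed with Q50. In females they were 1.6, 2.8 and 6.45 in Q20, 1.26, 3.15 and 4.73 in Q50, 2.27, 2.98 and 6.31 in Q92 livers and 1.51, 1.99 and 4.14 in Q140, against 1.78, 3.59 and 9.48 in wild types housed with Q20 and 1.37, 2.66 and 3.71 in wild types housed with Q50. Each allele overlapped the wild types in each sex. In females the Q50 median, 3.15 CPM, lay above the 2.66 CPM of the wild types housed with Q50. That median includes Q50 female replicate 1 at 6 months, whose label is in doubt and which was the highest Q50 female, at 2.38 FPKM. The log2 differences over both sexes were -0.57 ± 0.17 in Q20, -0.29 ± 0.16 in Q50, -0.23 ± 0.15 in Q92 livers and -0.58 ± 0.15 in Q140. At 10 months they were -0.66 ± 0.24, -0.50 ± 0.23, -0.47 ± 0.21 and -0.58 ± 0.22, and at 6 months -0.47 ± 0.23, -0.09 ± 0.23, 0.02 ± 0.20 and -0.58 ± 0.21, in the order Q20, Q50, Q92 and Q140. Without Q50 female replicate 1 at 6 months, the Q50 difference was -0.25 at that age and -0.38 over both. Without the wild-type male replicate 1 at 10 months, the Q20 difference at that age was -0.73. On log2(FPKM + 1) the differences over both ages were -0.36 in Q20 and -0.34 in Q140.

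**Figure D4:**
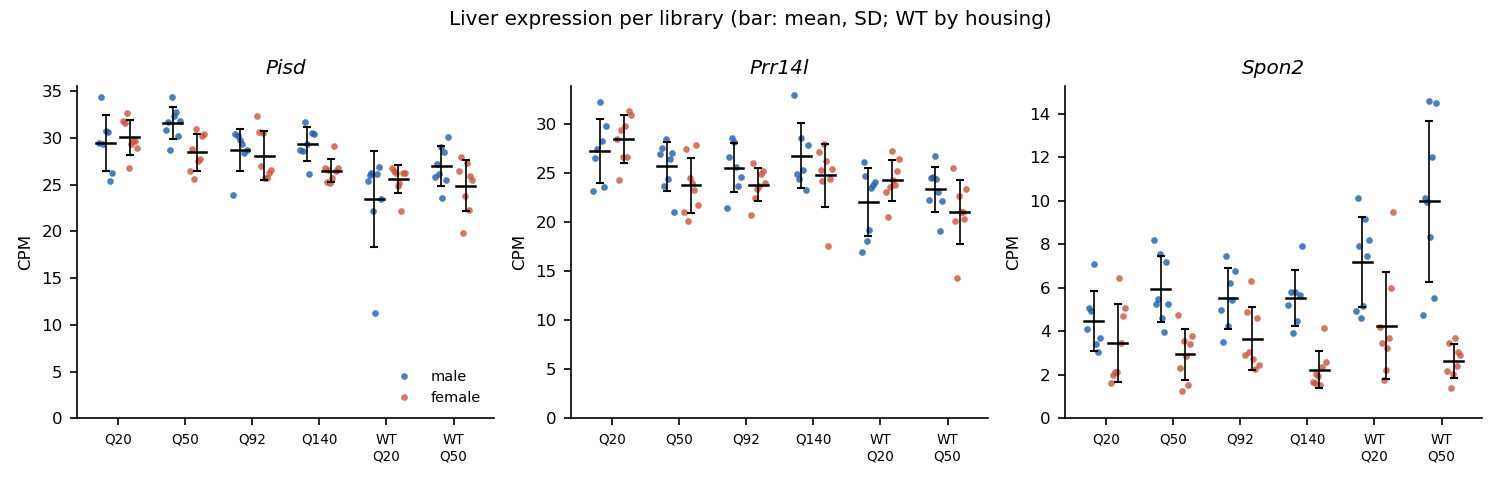
CPM (vertical axis) of Pisd, Prr14l and Spon2 in each library by genotype, males left and females right, with the mean and SD. The lowest Pisd point, 11.3 CPM, is a male of the wild types housed with Q20, and Spon2 is higher in males of every genotype by median.

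Htt itself, the targeted gene, had log2 differences of 0.08 ± 0.07 in Q20, -0.12 ± 0.07 in Q50, -0.25 ± 0.06 in Q92 livers and -0.34 ± 0.06 in Q140. By age, in the order Q20, Q50, Q92 and Q140, they were 0.03, -0.12, -0.23 and -0.45 at 10 months. At 6 months they were 0.13, -0.12, -0.27 and -0.23, so Q140 was not the lowest at that age. Without the Q140 female replicate 2 at 10 months, the Q140 difference of Htt was -0.30 over both ages and -0.38 at 10 months. Set against Q92 over both ages, Htt in Q140 differed by -0.09 ± 0.07. The deposited counts are per gene and not per allele. The wild types housed with Q20 and those housed with Q50 differed by no more than 0.08 on the log2 scale in any of the 10 genes except Hs3st1 in the fit with all libraries. With 1 library left out, the difference reached 0.15 in Spon2 (without female replicate 2 at 6 months of the wild types housed with Q50), 0.11 in Abhd1 (without female replicate 2 at 10 months of those housed with Q20) and -0.11 in Pisd (without female replicate 3 at 6 months of those housed with Q50). With lane as a covariate it was -0.17 in Abhd1 and 0.12 in Spon2.

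The tested genes around the 10 were examined by position. The 3 tested genes nearest to Htt on each side, Mfsd10, Nop14 and Grk4 on the lower side and Rgs12, Hgfac and Lrpap1 on the upper side, and Msantd1, which overlaps the end of Htt, had log2 differences between -0.34 and 0.07 in Q20 and Q50 together. Lrpap1, a chaperone of lipoprotein receptors, had 0.03, 0.01, 0.01 and 0.03 in Q20, Q50, Q92 and Q140. Among the other tested genes within 10 Mb, leaving out the 10 and Htt, the median size of the log2 difference in Q20 and Q50 was 0.061, against 0.052 over 14921 genes of other chromosomes, and none of the 130 passed an adjusted p of 0.05 there or in any single allele. An unadjusted p under 0.05 was found for 13.8% of the 130 genes, against 5.52% of those on other chromosomes. By allele these shares were 15.4% against 11.2% in Q20, 5.38% against 1.68% in Q50, 10.0% against 5.97% in Q92 livers, and 11.5% against 8.35% in Q140. Over the 847 tested genes of chromosome 5 beyond 10 Mb, they were 6.02% in Q20 and Q50 together, 12.5% in Q20, 1.53% in Q50, 8.15% in Q92 livers and 9.33% in Q140. The 79 genes at 10 to 20 Mb had 12.7% in Q20, 6.33% in Q50, 15.2% in Q92 livers and 8.86% in Q140, so in Q50 and Q92 the share was higher there than within 10 Mb. Over all tested genes, 0.031% passed the adjusted threshold in Q20 and Q50 together. The 10 genes, Preb aside, were chosen on differences of this kind and are left out of the 130. The lack of calls among the 130 is therefore partly set by the choice.

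The rule's limit at about 10 Mb falls just beyond Galnt11, at -9.5 Mb. Just outside it, Crygn at about -10 Mb had log2 differences of 0.04, 0.09, -0.27 and 0.11 in Q20, Q50, Q92 and Q140, and Wdr86 at -10.03 Mb had -0.46 ± 0.20, -0.44 ± 0.19, -0.54 ± 0.18 and -0.53 ± 0.18 at a mean of only 0.384 CPM. On the other side, Qdpr at 10.52 Mb had -0.04, 0.00, -0.03 and -0.01. The 10 other tested genes within 10 Mb with the largest difference in Q20 and Q50 together, at a mean of at least 1 CPM, were Slc5a6, Gm26608, Tacc3, Htra3, Cad, Cenpa, Prom1, Fosl2, Wfs1 and Emilin1, with values between -0.21 and 0.26. Of the 10 genes described here, Preb and Slc35f6 aside, all had values of 0.21 or more in size. The choice used knock-in against wild-type differences, but no cut on size is stated. Slc35f6, at 0.11, lies below the size of Emilin1 (-0.15), which was not chosen. Hs3st1, at 0.174 CPM, lies below the floor of 1 CPM, as do 30 other tested genes within 10 Mb. Of these 30, 10 had 0.21 or more in size, against 3 of the 100 above the floor. The largest below it were Crmp1 (-0.60 at 0.059 CPM), Cnpy1 (0.50 at 0.102 CPM), Bst1 (-0.47 at 0.262 CPM) and Msantd1 (-0.34 at 0.366 CPM), and the -0.63 of Hs3st1 is of like size. By allele, Crmp1 and Cnpy1 had opposite signs in Q20 (-1.70 and -0.57) and Q50 (0.51 and 1.58). Of these neighbours, Tacc3 and Htra3 had differences of -0.42 ± 0.12 and -0.45 ± 0.17 in Q20 but -0.02 to 0.16 in the other alleles. Yet Q20 and Q50 livers had like mean levels, 1.29 and 1.3 CPM of Tacc3 and 1.01 and 1.09 CPM of Htra3. The wild types housed with Q20 lay above those housed with Q50, at 1.75 against 1.29 CPM of Tacc3 and 1.31 against 1.05 CPM of Htra3.

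**Figure D5:**
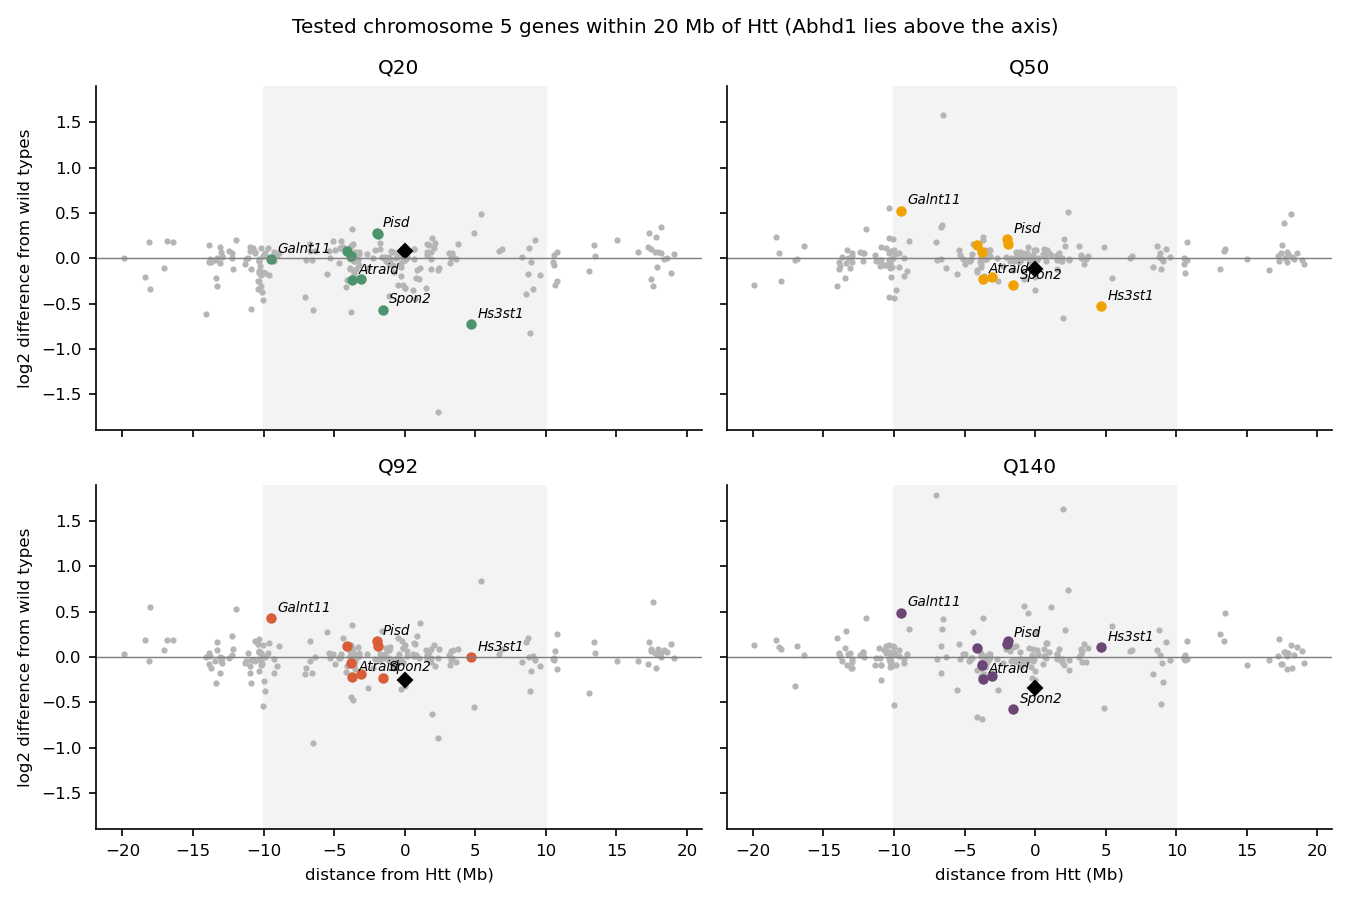
Log2 difference from the wild types (vertical axis) against distance from Htt in Mb (horizontal axis) for tested chromosome 5 genes, 1 panel per allele, with the band within 10 Mb shaded and Htt as a black diamond. The points of Galnt11 at -9.5 Mb lie at -0.01 in Q20 and 0.43 to 0.53 in the other panels, and Abhd1 lies off the axis.

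Q140 and Q92 were compared with each other as a test that does not use the wild types. None of the 10 genes passed an adjusted p of 0.05 in edgeR's quasi-likelihood test at 10 months, at 6 months or over both ages, where 0.0%, 0.0496% and 0.0062% of all tested genes passed. At 10 months, where edgeR called 0 genes in all, 978 genes (6.06%) had an unadjusted p under 0.05 and DESeq2 called 4. Over both ages, the difference Q140 minus Q92 was -0.09 for Abhd1 (95% interval -0.34 to 0.16), 0.06 for Galnt11 (-0.09 to 0.20) and -0.03 for Atraid (-0.11 to 0.06). These intervals bound the difference between the alleles and do not show them to be alike.

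The widest gap between these alleles was that of Spon2 at 6 months, -0.60 ± 0.23 on the log2 scale with an adjusted p of 0.357, and it was -0.30 on log2(FPKM + 1). Female Q140 livers of that age had 1.69, 1.64, 2.02 and 1.96 CPM, against 2.9, 4.87, 3.05 and 6.31 CPM in female Q92 livers, and these do not overlap. In this comparison, picked after its values were seen, 3.39% of all tested genes had every Q140 female below every Q92 female. In males, Q140 livers had 5.2, 5.8, 3.9 and 5.79 CPM and Q92 livers 4.99, 3.49, 7.44 and 4.23 CPM, which overlap.

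Between males and females, 7 of the 10 genes passed edgeR's test, a contrast in which 66.7% of all tested genes passed, so the count is near the background. Spon2 was higher in males, 6.52 against 3.19 CPM in females, by 1.03 ± 0.10 on the log2 scale (adjusted p = 1.96e-15), in 11 of 12 pairs of genotype and age. Preb was higher in males in 12 of 12 pairs, with 91.1 against 72.9 CPM in females and a difference of 0.32 ± 0.03 (adjusted p = 1.68e-15). Rbks was higher in males by 0.18 ± 0.04 (adjusted p = 3.43e-05, 11 of 12 pairs) and Slc35f6 by 0.10 ± 0.03 (adjusted p = 0.000423, 11 of 12 pairs).

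Galnt11 and Atraid were lower in males. Galnt11 had 12.7 CPM in males and 14.4 in females, a difference of -0.16 ± 0.04 (adjusted p = 0.000835) seen in 11 of 12 pairs. Atraid had 47.9 CPM in males and 50.6 in females, a difference of -0.08 ± 0.02 (adjusted p = 0.00263), also in 11 of 12 pairs. Hs3st1, at its few counts, had 0.144 CPM in males and 0.202 in females, a difference of -0.55 ± 0.14 (adjusted p = 0.00034, 11 of 12 pairs). Abhd1, with 0.04 ± 0.08, did not pass (adjusted p = 0.674), nor did Pisd (0.05 ± 0.03, 0.206) or Prr14l (0.04 ± 0.04, 0.283). The split of all called genes was 5241 higher and 5517 lower in males on counts, and 2226 higher and 8754 lower on log2(FPKM + 0.1), where the median of all genes lay at -0.153, against -0.006 on counts. Relative to that median, the FPKM differences were 0.99 for Spon2, 0.33 for Preb, 0.17 for Rbks, 0.09 for Slc35f6, -0.16 for Galnt11, -0.09 for Atraid and -0.16 for Hs3st1. On log2(FPKM + 1), Hs3st1 turned to 0.04 relative to the median and Spon2 had 0.65. Without that adjustment, limma's test on log2(FPKM + 0.1) called Pisd (-0.14, adjusted p = 0.000306) and Prr14l (-0.15, adjusted p = 0.00154) lower in males, the opposite sign to the counts, and they lay at 0.02 and 0.00 relative to the median.

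Between 10 and 6 months, none of the 10 genes passed, where 25.4% of all tested genes did. Preb came nearest, 0.07 ± 0.03 higher at 10 months with an adjusted p of 0.0719, and it passed under some of the settings given in the closing section. Whether the knock-in difference of Q20 and Q50 depends on sex was tested as an interaction, in which edgeR called 0.0% of genes (4.41% at an unadjusted p under 0.05, and 1 gene by DESeq2). Spon2 had -0.66 ± 0.23 in it, the difference lower in males, with an adjusted p of 1.0.

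Likeness between genes over the 93 libraries was described by Pearson's r of log2 CPM. This r is shared by libraries of 1 genotype and sex and carries no p. Genes were ranked by the size of r whatever its sign, so a negative r marks a gene that moved the opposite way. The genes most like Preb were Tmem214 (r = 0.92), at -3.88 Mb, Gmppb (0.91) and Hyou1 (0.90), a chaperone of the endoplasmic reticulum. For Spon2 the largest were those of the cytochrome P450 genes Cyp2a5 (r = -0.86, the opposite way) and Cyp4f17 (0.86), and Dtx4 (0.84). For Pisd these were Gm6206 (0.73), Hadha (0.72), a subunit of the mitochondrial trifunctional protein, and Ddx19a (0.72), and for Prr14l Atad2b (0.76), Dcp2 (0.72) and Tnks (0.71). Slc35f6 was most like Prmt5 (0.65), Ccdc25 (0.63) and Rbm45 (0.63), and Rbks like Zmat2 (0.66), Klhdc4 (0.64) and Srgap2 (-0.64). Lower values were found for Galnt11, with Rhod (-0.58), Dclre1a (0.56) and Eml3 (-0.56), and for Hs3st1, with Fam171a2 (0.54), Lipt1 (-0.54) and Ostc (-0.53). Among the 10 themselves, Abhd1 and Atraid gave an r of -0.67, Atraid and Prr14l -0.71, Abhd1 and Pisd 0.49, and Abhd1 and Galnt11 0.47. These genes were picked on knock-in against wild-type differences in the same libraries. Those differences enter the r between them, so nothing further is read from it. Outside the 10, Atraid was most like Cutc (0.55).

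Genes of the same pathway or family elsewhere in the genome were followed in lists of partners. All 15 COPII and exit-site genes, 10 of 10 phosphatidylethanolamine and phosphatidylserine synthesis genes, 10 of 11 other O-GalNAc transferases, 13 of 14 heparan sulfate synthesis genes, 18 of 18 ABHD hydrolases and 10 of 10 pentose genes were tested. None of them passed in any knock-in contrast with wild types, where 0.0186% of all tested genes passed in Q20, 0.0186% in Q50, 0.0248% in Q92 livers and 0.0372% in Q140, nor between Q140 and Q92, with the exception of Abhd17c, lower by 0.33 on the log2 scale in Q140 than in Q92 at 6 months (adjusted p = 0.0344). That call was lost without the filter on low counts, with lane as a covariate, without the libraries that carry no index, on FPKM, and when any of 9 libraries was left out. These were Q140 females 1 and 2, Q140 males 1 and 2, Q92 females 1, 2 and 3, and Q92 males 1 and 4. The medians of the lists lay between -0.08 and 0.09, while those of all tested genes lay between -0.014 and 0.002.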

How the data were processed

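Expression was measured by RNA-seq of total RNA from flash-frozen liver in 93 libraries, per the labels' protocols. The authors deposited expected counts (estimated read counts per Ensembl gene, 26.0% of values above 0 not whole at a tolerance of 0.001) and FPKM, scaled per gene length and library. CASAVA 1.8.2 is named in the submitters' processing notes. The aligner, build and strand setting are not given in the sources used here.

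Expected counts were rounded and analysed with edgeR 4.0.16 in R 4.3.3: filterByExpr (minimum count 10, total 15), TMM factors, 24 group means, glmQLFit with robust estimation, glmQLFTest, 2-sided, with Benjamini-Hochberg adjustment over 16126 genes at 0.05. Alternatives used DESeq2 1.42.0 and limma 3.58.1 on log2(FPKM + 0.1) and log2(FPKM + 1). Tools were tested on simulated data first. Symbols were found for 37607 identifiers, leaving 1572. Intervals are 95% from the SE. The genes, lists and tests were chosen with earlier results of these data known. The text names the 10 genes and Htt, overlapping genes, the 3 tested genes nearest to Htt on each side, the genes of largest difference within 10 Mb, and the 3 genes most like each of the 10. No 2 libraries were identical, and the chi-square over degrees of freedom between replicates was 25.4 to 581.1. In all, 16 libraries carry no index label.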

Additional observations from a re-analysis of the deposited data

Results flagged for a closer look

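Each value below lay far from the other libraries of its group, by a gap beyond the 95% limit of Dixon's test. Groups were the libraries of 1 genotype and age, both sexes together. In 132 groups examined, chance alone gives about 5%, and 10 values were found. In the Q50 females at 6 months, replicate 1 had 2.39 CPM of Abhd1 and 13.4 CPM of Slc35f6. In Q92 at 10 months, male replicate 1 had 27.2 CPM of Abhd1, where the other males and females had 17.3 to 21.0. Atraid was at 39 CPM in male replicate 1 of Q140 at 6 months, with the others at 43.9 to 47.6, and at 64.5 CPM in female replicate 2 of Q140 at 10 months, with the others at 41.9 to 48.7. In the wild types housed with Q20, male replicate 1 at 10 months had 42.1 CPM of Atraid, 11.3 of Pisd and 19.2 of Prr14l. Male replicate 4 of the same wild types at 6 months had 22.2 CPM of Pisd, with the others at 24.9 to 26.8. Hs3st1 was at 0.197 CPM in female replicate 3 of Q20 at 6 months, with the others at 0.0923 to 0.137.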

How the results depend on the processing

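Of 8657 log2 differences of the 10 genes and Htt recomputed under the alternatives, 119 changed sign, all of them 0.16 or less in size as reported. Among the tests, 7 newly passed, 6 no longer passed and 9 changed sign with a call on either side. Those of Abhd1 from wild types on log2(FPKM + 1) were 2.90 in Q20, 2.67 in Q50, 2.88 in Q92, 2.82 in Q140 and 2.79 in Q20 and Q50 together, since a pseudocount shrinks the change of low genes. Leaving out 1 replicate gave 3.56 to 3.70, 3.39 to 3.53, 3.53 to 3.62, 3.45 to 3.52 and 3.50 to 3.58 in the same order. The number of genes called between Q140 and Q92 was small and moved with the setting. At 6 months (8 genes) it was 31 with DESeq2, 4 without a filter, 2 with lane as a covariate, 0 without the libraries that carry no index, 0 on log2(FPKM + 0.1) with or without a filter, 2 on log2(FPKM + 1), and 0 to 29 with 1 replicate left out (29 without Q92 male replicate 2, and 0 without each of 9 other libraries in turn). At 10 months (0 genes) it was 4 with DESeq2 and 1 on log2(FPKM + 0.1) without a filter, and 0 to 0 with 1 replicate left out. Over both ages (1 gene) it was 0 with lane, without index-less libraries and in the 3 FPKM fits, and 0 to 1 with 1 replicate left out (0 without Q92 female replicate 1 at 6 months or replicate 4 at 10 months). The interaction with sex (0 genes) gave 1 with DESeq2. Between males and females the count was 10626 to 11063 with 1 replicate left out, and between 10 and 6 months 3801 to 4694. Rbks (0.01, adjusted p = 0.726) no longer passed between the sexes on log2(FPKM + 0.1). On FPKM not adjusted for the shift of all genes, the differences of males minus females changed sign for Slc35f6 (-0.06, -0.05 and -0.06 with pseudocounts of 0.1, 1 and 0.1 without a filter), Pisd (-0.14, -0.13 and -0.14) and Prr14l (-0.15, -0.11 and -0.15), of which Pisd (adjusted p 0.000267 to 0.000472) and Prr14l (0.00119 to 0.00231) passed in limma as lower in males. Abhd1, which passed in none of them, also changed sign (-0.11, -0.08 and -0.11). Spon2 had 0.56 on log2(FPKM + 1), against 1.03 on counts, and still passed. The cause was not tested. Preb between 10 and 6 months passed with DESeq2 (adjusted p = 0.0475) and on FPKM (0.0379 and 0.0373), and without Q140 female replicate 3 at 6 months (0.0364) or, among wild types housed with Q20, male replicate 2 at 6 months (0.028) or male replicate 4 at 10 months (0.0332). Pisd between males and females passed without the wild-type male replicate 1 at 10 months housed with Q20 (adjusted p = 0.0128). Lane was coded within age, and that fit gives no value for 10 against 6 months. With lane number shared by both ages, chosen after seeing the data, 3875 genes were called between the ages and none of the 10, with Preb at an adjusted p of 0.0914. Same-numbered replicates did not deviate together (mean correlation 0.007 against -0.002 for other numbers), and the replicate block gave 7, 0 and 1 genes between Q140 and Q92, 10751 between the sexes, 4134 between the ages and 0 in the interaction. The block changed no call of the 10 genes. Hs3st1, with 1 to 15 counts per library, is limited by depth.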
